A study of Mus musculus with 6 samples.

Results

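The 9 genes described here carry out mitochondrial dynamics, mitophagy and upkeep of the mitochondrial genome: Mfn1, Mfn2, Opa1, Dnm1l, Fis1, Pink1, Tfam, Polg and Nrf1. They were taken by gene symbol from a table of 45777 genes, and all 9 were found. All 9 were among the 18328 genes that averaged 10 counts or more per library and were tested. The rule uses the symbols alone.

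The heart renews its mitochondria by joining and dividing them. Mfn1 and Mfn2 are GTPases that fuse the outer membrane and Opa1 is the one that fuses the inner membrane, while Dnm1l (DRP1) constricts and divides the organelle at sites marked by receptors of the outer membrane, among which Fis1 has been placed. Pink1 is a kinase that builds up on damaged mitochondria and starts their marking for removal by autophagy. Polg is the catalytic subunit of the polymerase that copies mitochondrial DNA, Tfam packages that DNA and starts its transcription, and Nrf1 (nuclear respiratory factor 1) is a nuclear transcription factor for respiratory chain genes. Doxorubicin is an anthracycline whose toxicity to the heart is known to involve mitochondria.

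The hearts were those of female mice of the line BALB/c nude (CAnN.Cg-Foxn1nu/Crl). The mice were 6 weeks old at the start of the experiment and older when the hearts were taken. All had received human MDA-MB-231 breast cancer cells under the skin. The groups were vehicle (Control), ginsenoside Rh2 at 20 or 30 mg/kg daily (written Rh2-20 and Rh2-30), doxorubicin at 2 mg/kg every other day to a cumulative 22 mg/kg (Dox), and each Rh2 dose together with doxorubicin (written Rh2-20+Dox and Rh2-30+Dox). Treatment ran for 3 weeks from day 7 after the cells were given, and the comparison asks whether Rh2 alters what doxorubicin does to the heart. Nude mice lack a thymus and so most T cells, and the hearts are those of tumour-bearing animals in every group, Control included. Each group was 1 library made from 5 pooled hearts, so differences between mice were not measured and no group has a replicate.

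The libraries held 86164411 to 90621002 counts, which makes counting error small for all 9 genes (1057 to 57457 counts per library). Cardiomyocyte markers were abundant in every library, with all 10 tested, so the tissue label held. The library from Rh2-30 stood apart. Its summed atrial markers were at 1662 CPM (counts scaled to library size, normalized by TMM) against 45.7 to 403 in the others, its white fat markers at 199 against 0.345 to 37.1, and its cardiomyocyte markers were lowest, at 87431 against 101981 to 119128. Ucp1, which defines brown fat, a tissue rich in mitochondria, had 6442 counts there and 0 to 12 in the others. Fewer cells of a type and less RNA per cell cannot be told apart in such bulk samples.

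The stretches of 150 bases just upstream of an annotated transcription start are shown for 5 of the 9 genes. Polg and Nrf1 are the members whose libraries separated by Dox, and Pink1 and Tfam those that separated by Rh2. Opa1 holds an exact copy of the palindrome that nuclear respiratory factor 1 binds. The stretches are RefSeq sequences on GRCm38.p6, the assembly of mm10, written 5′ to 3′ on the strand of the gene. The windows are chr7:79466274-79466423 (minus strand) for Polg, chr6:30047838-30047987 (plus) for Nrf1, chr4:138326297-138326446 (minus) for Pink1, chr10:71238045-71238194 (minus) for Tfam and chr16:29579184-29579333 (plus) for Opa1. The windows of Polg and Tfam lie inside the annotated span of the gene, and Nrf1 has a further annotated start that is not shown. Capitals mark matches to the motifs searched.
Polg: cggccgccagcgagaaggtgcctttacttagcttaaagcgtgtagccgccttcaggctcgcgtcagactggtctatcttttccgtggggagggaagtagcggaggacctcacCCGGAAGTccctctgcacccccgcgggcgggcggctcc
Nrf1: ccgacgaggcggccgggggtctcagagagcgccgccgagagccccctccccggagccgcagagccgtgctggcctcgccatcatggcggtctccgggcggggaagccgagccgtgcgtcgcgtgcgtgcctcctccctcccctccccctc
Pink1: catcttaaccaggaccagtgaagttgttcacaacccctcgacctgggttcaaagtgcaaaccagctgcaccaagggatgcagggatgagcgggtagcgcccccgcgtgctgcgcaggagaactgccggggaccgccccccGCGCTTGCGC
Tfam: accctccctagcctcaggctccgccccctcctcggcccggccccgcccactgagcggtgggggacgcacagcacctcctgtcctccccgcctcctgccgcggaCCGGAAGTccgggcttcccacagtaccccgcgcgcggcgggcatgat
Opa1: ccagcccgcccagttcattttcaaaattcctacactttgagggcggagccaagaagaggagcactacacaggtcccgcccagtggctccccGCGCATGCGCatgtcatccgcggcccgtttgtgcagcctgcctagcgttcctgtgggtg

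Motifs were searched on both strands from 250 bases before to 50 after each start, in 14 windows that cover all 9 genes. The motif of GABP (nuclear respiratory factor 2, an ETS factor), CCGGAAGT, was present in 4 of the 9 genes: 38 bases upstream of the start in Polg, 47 in Tfam, 44 in Mfn1 and 18 in Fis1. Of all 27025 genes with a promoter in the RefSeq set, 4.31% held it. The palindrome of nuclear respiratory factor 1 (GCGC, AT and GCGC in a row) was present in Opa1 only among the 9, 59 bases upstream of the start, and in 1.07% of all genes. Its looser form, with any pair of bases in the middle, which contains the exact one, was matched in Opa1 and, 10 bases upstream, in Pink1, and in 7.00% of all genes. The motif of the estrogen-related receptors, TCAAGGTCA, was in none of the 14 windows and in 0.466% of all genes. The windows that held the GABP motif were 54.7% to 70.3% G and C, against a median of 52.7% over all promoters. The shares of all genes were not matched to the 9 by G and C content or by windows per gene. A match is a match of letters only.

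The level of the 9 transcripts per length spanned a wide range (FPKM, fragments scaled by transcript length and library size, mean ± SD over the 6 libraries). Mfn1 was the most abundant, at 95.6 ± 14.0 FPKM (n = 6), and stood at percentile 97.9 of all tested genes. Mfn2 followed at 46.6 ± 6.75 FPKM, Dnm1l at 38.3 ± 2.65, Opa1 at 33.1 ± 3.14 and Pink1 at 32.4 ± 5.90 (n = 6 each). These 4 genes lay between percentiles 92.8 and 95.4 of tested genes. Fis1 was at 20.4 ± 1.78 FPKM, Polg at 10.3 ± 1.30, Nrf1 at 9.30 ± 0.776 and Tfam at 2.83 ± 0.331 (n = 6 each), the last of these at percentile 48.3. The fusion genes were thus above the genes of mitochondrial DNA upkeep in every library. The authors built the libraries with the SureSelect XT RNA Direct kit. Whether it captures some genes better than others was not tested, so levels of different genes may also reflect the kit.

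The order was not equally firm at each step. Mfn1 was 1.69 to 2.39 times Mfn2 in FPKM within the same library, without overlap. Mfn2, Dnm1l and Opa1 had overlapping ranges, although the order Mfn2, Dnm1l, Opa1 held in 6 of 6 libraries. Opa1 and Pink1 could not be ordered, since Opa1 was the higher in 3 of 6 libraries. Polg and Nrf1 overlapped in range (8.85 to 11.6 and 8.52 to 10.6 FPKM), with Polg higher in 6 of 6.

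**Figure D1:**
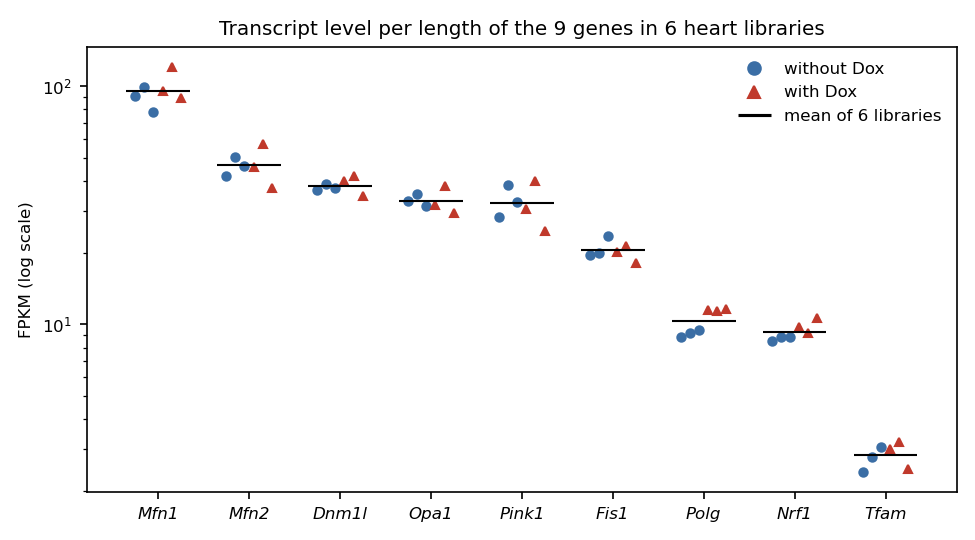
Transcript level per length (FPKM, log scale) of the 9 genes, 1 point per library, circles without Dox and triangles with Dox, with a bar at the mean of the 6 libraries. Mfn1 is the highest at 95.6 FPKM and Tfam the lowest at 2.83, and the libraries of a gene lie close together beside the differences between genes.

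For comparisons between libraries, counts were scaled to normalized CPM (TMM in edgeR). The 3 libraries with Dox were set against the 3 without by edgeR's quasi-likelihood test, two-sided, over all 18328 genes, and the 4 libraries with Rh2 against the 2 without with Dox as a term. The p-values were adjusted by Benjamini-Hochberg. As the libraries of an arm differ in their other treatment, the spread in these tests includes that treatment. Fitted values with Dox were above 0 for 10 of 10 cardiomyocyte and 5 of 5 erythroid markers. They were above 0 for 0 of 7 macrophage, 0 of 4 atrial, 2 of 6 fibroblast and 3 of 6 endothelial markers (47.2% of all tested genes). None of these markers passed the adjusted threshold with Dox. The part of these marker differences in the Dox values was not tested. None of the 9 genes passed an adjusted p of 0.05 with Dox or with Rh2, where 0.0273% and 0% of all tested genes did (5 and 0 genes). At an unadjusted p under 0.05, 1 of the 9 (Polg, with Dox) and none with Rh2 were counted, against 10.1% and 8.74% of all tested genes, so the share of the 9 was near that of all genes with Dox. DESeq2's Wald test called 423 genes with Dox and 247 with Rh2, and none of the 9 was among them.

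The clearest separation by Dox was that of Polg. Polg was at 71.4 normalized CPM in Control, 71.0 in Rh2-20 and 65.4 in Rh2-30, and at 86.5 in Dox, 80.2 in Rh2-20+Dox and 84.7 in Rh2-30+Dox. The 3 libraries with Dox (83.8 ± 3.23, mean ± SD, n = 3) all lay above the 3 without (69.2 ± 3.36, n = 3). The log2 fold change was 0.28 (SE 0.0797, 95% interval 0.09 to 0.46), with an unadjusted p of 0.0105 and an adjusted p of 0.347 (edgeR's quasi-likelihood test), so it did not pass over all genes. Over the 14 alternatives tried it lay between 0.23 and 0.33, with adjusted p-values of 0.063 to 0.594. Polg lies on chromosome 7 (79446231 to 79467911, GRCm38.p6) and its annotated end overlaps that of Fanci, which had at most 295 counts in a library. With Rh2 the Polg value was -0.07 (adjusted p = 0.790), and it was above 0 on library totals and on FPKM.

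Nrf1 was also higher in every library with Dox, at a smaller size. Its level was 29.5 normalized CPM in Control, 31.0 in Rh2-20 and 27.1 in Rh2-30, against 36.7 in Dox, 32.0 in Rh2-20+Dox and 32.0 in Rh2-30+Dox. The arms did not overlap, in FPKM as in normalized CPM for Nrf1 and Polg alike, and the Dox library was the highest, but the interval of the log2 fold change held 0 (0.20, -0.03 to 0.43, adjusted p = 0.559). Polg and Nrf1 were the 2 of the 9 genes whose arms did not overlap with Dox, both higher, against 17% of all tested genes (7.85% higher and 9.16% lower), a share near that of all genes. Nrf1 spans chr6:30047985-30153458. With Rh2 its value was -0.11, and no direction passed.

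Around Polg, the wider list for maintenance and transcription of mitochondrial DNA had 36 genes, all tested. With Dox 0 passed the adjusted threshold, 5 were higher and 1 lower at an unadjusted p under 0.05 (4.2% and 5.91% of all tested genes), and the median log2 fold change was 0.02 (-0.01 over all tested genes). Polg2, the accessory subunit that holds Polg on its template, had the largest value of the list. It was at 4.27, 4.44 and 4.77 normalized CPM in Control, Rh2-20 and Rh2-30, and at 7.08, 7.03 and 6.16 in Dox, Rh2-20+Dox and Rh2-30+Dox. Its arms did not overlap, with a log2 fold change of 0.59 (adjusted p = 0.242 with edgeR's quasi-likelihood test, 0.00563 with DESeq2's Wald test). Primpol, a primase-polymerase that restarts stalled copying, had the smallest value, -0.46 (adjusted p = 0.303 with edgeR and 0.0361 with DESeq2), at 12.5 to 13.3 normalized CPM without Dox and 8.19 to 10.1 with it. The 2 subunits of the polymerase thus both lay higher with Dox, and the primase-polymerase lower, in 3 of 3 libraries, without passing edgeR's threshold. Polg2 and Primpol were named as the extremes of the list. In the list 6 genes were higher and 1 lower without overlap, where 7.85% and 9.16% of all tested genes were. For Twnk, Ssbp1 and Polrmt, of the same list, the arms overlapped.

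Tfam separated by Rh2 and not by Dox. It was at 12.7 normalized CPM in Control and 12.9 in Dox, against 14.0 in Rh2-20, 14.7 in Rh2-30, 15.1 in Rh2-20+Dox and 17.1 in Rh2-30+Dox. The 4 libraries with Rh2 all lay above the 2 without, and within each Dox state the level at 30 mg/kg was above that at 20 mg/kg. The log2 fold change with Rh2 was 0.25 (95% interval -0.0045 to 0.50, adjusted p = 0.569), which did not pass, and it was 0.18 to 0.32 when each library was left out in turn. With Dox it was 0.12 (adjusted p = 0.795). The 5 brown fat markers, summed, were also higher in all 4 libraries with Rh2, and higher at 30 than at 20 mg/kg. Without and with Dox the sum was 210 and 216 normalized CPM without Rh2, 248 and 221 at 20 mg/kg. At 30 mg/kg it was 291 and 304. At 20 mg/kg the sum was thus lower with Dox, where Tfam was higher. Cox7a1 and Cox8b, which heart muscle also uses, made up 96.3% to 98.3% of that sum outside Rh2-30 and 68.1% in it. In Rh2-30 these 2 genes were at 83.8 and 115 normalized CPM, against 85.3 and 117 in Control, and Ucp1 was at 67.9. Without the Rh2-30 library the value of Tfam with Rh2 was 0.25 and that of Pink1 was 0.46. The part of brown fat RNA in the Tfam and Pink1 values was not tested. Tfam lies on chr10:71225468-71238328 and, with 1057 to 1487 counts per library, has the fewest counts of the 9. With Rh2, the extremes of the list for mitochondrial DNA among genes that averaged 100 counts or more were Suclg1, a subunit of succinyl-CoA ligase, at 0.37 (adjusted p = 0.573), and Tk2, the mitochondrial thymidine kinase, at -0.24 (adjusted p = 0.635).

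The transcripts made from mitochondrial DNA were at lower levels in the libraries with Rh2, where Tfam was at higher ones. All 13 mRNAs encoded there were tested, and together they made up 4.46% of counts in Control and 4.38% in Dox, against 3.54% in Rh2-20, 2.89% in Rh2-30, 3.46% in Rh2-20+Dox and 3.47% in Rh2-30+Dox. The sum was therefore lower in each of the 4 libraries with Rh2 than in either library without it, and the same held for 13 of 13 mRNAs (9.08% of all tested genes were lower without overlap). Their log2 fold changes with Rh2 were -0.45 to -0.52, with 13 of 13 under an unadjusted p of 0.05 (4.65% of all tested genes were lower at that p) and 0 under an adjusted p of 0.05 (adjusted p = 0.567 to 0.568). They are cut from shared long transcripts and are not independent of each other. Whether the library kit captured these mRNAs equally well in each library was not tested. With Dox their fitted values had a median of 0.09 and no arms separated. The summed level was lower with Dox than without at 0 and 20 mg/kg of Rh2 (44897 against 46441 and 33923 against 35170 normalized CPM) and higher at 30 mg/kg (36198 against 26715). Among the libraries with Rh2, that from Rh2-30 was the lowest, and its cardiomyocyte markers were the lowest as well. Summed cardiomyocyte markers were at 106502 normalized CPM in Rh2-20 and 101981 in Rh2-20+Dox, below Control (117752) and Dox (116107). In Rh2-30+Dox they were the highest, at 119128. With Rh2, fitted values were above 0 for 2 of 10 cardiomyocyte, 6 of 6 fibroblast and 7 of 7 macrophage markers. The part of these marker differences in the result was not tested.

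**Figure D2:**
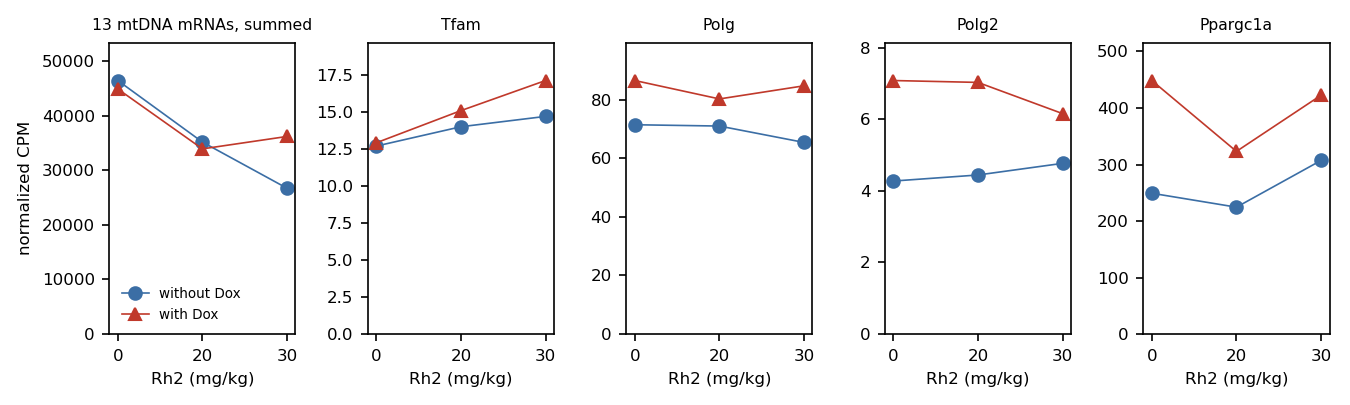
Normalized CPM against Rh2 dose (mg/kg), 1 library per point, circles without Dox and triangles with Dox, for the sum of the 13 mRNAs of mitochondrial DNA, Tfam, Polg, Polg2 and Ppargc1a. The sum is at 46441 in Control and 44897 in Dox and at 26715 to 36198 with Rh2, while Tfam is higher with Rh2, and Polg, Polg2 and Ppargc1a are higher with Dox at each Rh2 dose.

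The regulators of mitochondrial biogenesis around Nrf1 formed a list of 21 genes, all tested. With Dox 0 passed the adjusted threshold, 4 were higher and 0 lower at an unadjusted p under 0.05 (4.2% and 5.91% of all tested genes), and 5 were higher in every library with Dox than in any without (7.85% of all tested genes). The list median was 0.07 with Dox and -0.07 with Rh2, beside -0.01 and 0.01 for all tested genes. Ppargc1a, which encodes PGC-1α, a coactivator of Nrf1, had the largest value with Dox. Its levels were 249, 225 and 307 normalized CPM in Control, Rh2-20 and Rh2-30 and 449, 323 and 423 in Dox, Rh2-20+Dox and Rh2-30+Dox. The arms did not overlap, and the log2 fold change of 0.61 had an adjusted p of 0.333 with edgeR and 0.0163 with DESeq2's Wald test. Prkaa1, a catalytic subunit of the energy sensor AMPK, had the smallest value, -0.09. With Rh2 the extremes of this list were Ppara, a receptor that turns on fatty acid oxidation, at 0.29 (adjusted p = 0.572), and Gabpb2, a subunit of GABP, at -0.24 (adjusted p = 0.567). Gabpb2 was at 36.6 and 39.7 normalized CPM without Rh2 and 30.8 to 34.7 with it.

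Pink1 was the most variable of the 9 in relation to its level and separated by Rh2. It was at 90.1 normalized CPM in Control and 77.5 in Dox, against 117 in Rh2-20, 94.3 in Rh2-30, 92.2 in Rh2-20+Dox and 128 in Rh2-30+Dox. All 4 libraries with Rh2 lay above both libraries without it, although those from Rh2-30 and Rh2-20+Dox were close to Control. The log2 fold change was 0.37 (95% interval -0.06 to 0.79, adjusted p = 0.580) and did not pass, and it was 0.23 to 0.51 when each library was left out in turn. Pink1 and Tfam were the 2 of the 9 genes whose arms did not overlap with Rh2, against 19% of all tested genes (9.87% higher), again a share near that of all genes. With Dox the value was -0.01 (adjusted p = 0.990). Pink1 spans chr4:138313409-138326296.

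The log2 ratio of Dox to Control was -0.22 and that of Rh2-20+Dox to Rh2-20 was -0.34, whereas Rh2-30+Dox was above Rh2-30 by 0.44. With the dispersion between libraries each of these intervals held 0 (-0.89 to 0.46, -1.01 to 0.34 and -0.23 to 1.12). These are ratios of 1 library to another, with no replicate check. The ratio of Rh2-30+Dox to Dox was 0.73 (0.05 to 1.40 with the dispersion between libraries). Its interval excluded 0, as it did for 13.5% of all tested genes in that ratio.

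Of the mitophagy list, 32 of 33 genes were tested. None passed the adjusted threshold. At an unadjusted p under 0.05, 4 were higher and 0 lower with Dox (4.2% and 5.91% of all tested genes), and 1 was higher and 1 lower with Rh2 (4.09% and 4.65%). The medians were 0.04 with Dox and 0.08 with Rh2. Bnip3 and Bnip3l are receptors of the outer membrane that bring autophagosomes to mitochondria. Bnip3 was at 45.0 in Control and 58.9 in Dox, against 62.2, 56.2, 75.1 and 89.6 in Rh2-20, Rh2-30, Rh2-20+Dox and Rh2-30+Dox. Its log2 fold change with Rh2 was 0.44 (adjusted p = 0.567 with edgeR, 0.0418 with DESeq2's Wald test), with overlapping arms. Bnip3l was at 285 normalized CPM in Dox, 200.5 in Rh2-20+Dox and 94.8 to 145 in the other 4 libraries, with log2 fold changes of 0.53 with Dox (adjusted p = 0.661) and -0.51 with Rh2 (adjusted p = 0.664). Bnip3l also clears mitochondria from maturing red cells, and the 5 erythroid markers summed to 10498 normalized CPM in Dox, 5896 in Rh2-20+Dox and 1657 to 3600 in the other libraries, the same 2 libraries being highest. The part of red cell RNA in the Bnip3l values was not tested.

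Among the fusion genes, no arms separated and 1 library stood out. Mfn1 was at 508 normalized CPM in Control, 521 in Rh2-20, 397 in Rh2-30, 503 in Rh2-20+Dox, 661 in Rh2-30+Dox and 482 in Dox. The highest and the lowest library were thus the 2 that received Rh2 at 30 mg/kg, with and without Dox. The log2 fold change was 0.21 with Dox (95% interval -0.18 to 0.59, adjusted p = 0.719) and 0.06 with Rh2 (-0.40 to 0.51, adjusted p = 0.942). Rh2-30+Dox exceeded Rh2-30 by 0.73 (0.06 to 1.41 with the dispersion). That interval excluded 0, as for 19.3% of all tested genes, and the denominator is the library with the lowest cardiomyocyte markers. Mfn1 overlaps Gnb4 at its end (chr3:32529443-32579225), which had at most 2104 counts.

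Mfn2, which also ties mitochondria to the endoplasmic reticulum, was at 259 normalized CPM in Control, 295 in Rh2-20, 257 in Rh2-30, 268 in Rh2-20+Dox, 352 in Rh2-30+Dox and 226 in Dox. The Dox library was the lowest and Rh2-30+Dox the highest. Its log2 fold change was 0.27 with Rh2 (95% interval -0.12 to 0.66, adjusted p = 0.632) and 0.06 with Dox (adjusted p = 0.929, with the sign reversed on FPKM), and the arms overlapped in both. Opa1 had the narrowest range of the 3 fusion genes, at 274, 280 and 241 normalized CPM in Control, Rh2-20 and Rh2-30 and 255, 319 and 241 in Rh2-20+Dox, Rh2-30+Dox and Dox. Its values were 0.04 with Dox (95% interval -0.27 to 0.34, with the sign reversed on library totals and on FPKM) and 0.09 with Rh2 (-0.26 to 0.44). Mfn2 spans chr4:147873586-147904909 and Opa1 chr16:29579281-29663127.

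The list of 19 fusion and Opa1-processing genes, all tested, had 0 past the adjusted threshold and 0 at an unadjusted p under 0.05 with either agent. With Rh2, 17 of 19 were above 0 (51.8% of all tested genes), with a median of 0.14 beside 0.01 for all tested genes, and 4 were higher in every library with Rh2 (9.87% of all tested genes). Among list genes that averaged 100 counts or more, to which the extremes named for each list are limited, Immt, the scaffold of the inner membrane's cristae junctions, had the largest value with Rh2, 0.36 (adjusted p = 0.574), at 202 and 166 normalized CPM without Rh2 and 209 to 276 with it. Apool, another cristae junction protein, had the smallest, -0.045. With Dox the extremes were Parl, a protease of the inner membrane that cleaves PINK1, at 0.22, and Spg7, a protease subunit of the same membrane, at -0.10, with adjusted p-values of 0.575 and 0.869.

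The fission genes varied least of the 9 between libraries, with a root mean square deviation from their mean of 0.090 for Fis1 and 0.11 for Dnm1l in log2 normalized CPM. Dnm1l was at 201, 204 and 186 normalized CPM in Control, Rh2-20 and Rh2-30 and 210.3, 233 and 187 in Rh2-20+Dox, Rh2-30+Dox and Dox. No order by Dox or Rh2 was seen, with log2 fold changes of 0.09 with Dox (95% interval -0.15 to 0.34) and 0.09 with Rh2 (-0.17 to 0.36). Fis1 was at 21.3 in Control, 20.6 in Rh2-20, 22.9 in Rh2-30, 20.6 in Rh2-20+Dox, 23.0 in Rh2-30+Dox and 19.3 in Dox. Both libraries at 30 mg/kg were above both at 20 mg/kg, so Fis1 was the 1 member of the 9 that separated by dose, against 22.2% of all tested genes (11.1% higher). The log2 fold change of 30 over 20 mg/kg was 0.16 (adjusted p = 0.99995), and it was -0.04 with Dox and 0.10 with Rh2. No member and no other gene passed the adjusted threshold in that comparison, in which 331 genes (1.81%) had an unadjusted p under 0.05 and DESeq2's Wald test called 6. Without the Rh2-30+Dox library the value of Mfn1 in that comparison was -0.40, but Rh2-30 is then the only library at 30 mg/kg. Dnm1l spans chr16:16312228-16359038 and Fis1 chr5:136953275-136966234.

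The wider fission list had 16 genes, all tested, with 0 past the adjusted threshold. Inf2, a formin that builds actin around the division site, had the largest value with Dox, 0.27, and the smallest with Rh2, -0.33 (adjusted p = 0.663 and 0.578). Its levels were 85.7 and 87.6 normalized CPM without Rh2 and 51.3 to 84.8 with it. Mul1, an outer membrane ligase, was at 0.31 with Rh2 (adjusted p = 0.572). Mtfr2, a fission regulator that was low in all libraries (1.27 to 2.45 normalized CPM), had the smallest value with Dox among those that averaged 100 counts or more, -0.34 (adjusted p = 0.743).

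**Figure D3:**
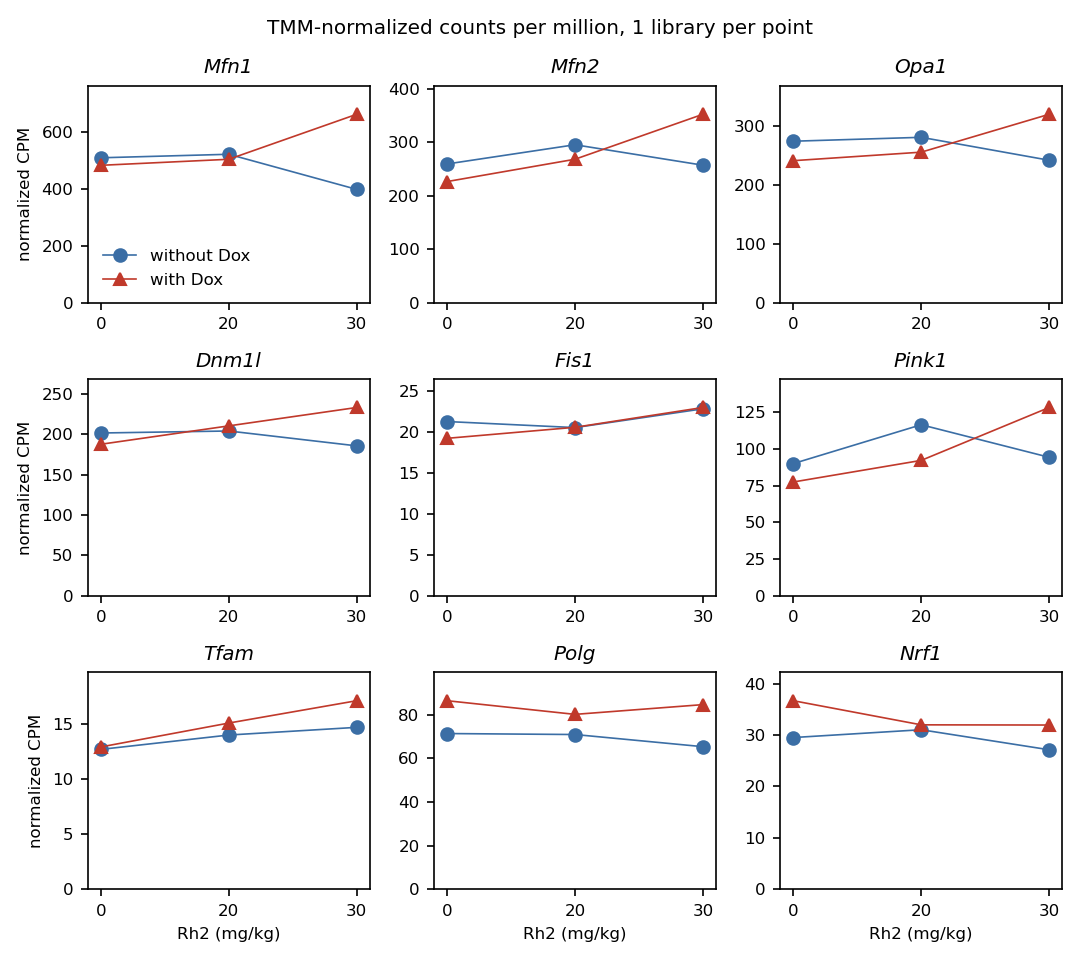
Normalized CPM of each gene against Rh2 dose (mg/kg), 1 library per point, circles without Dox and triangles with Dox, each axis starting at 0. Polg and Nrf1 are higher with Dox at each dose, whereas Mfn1, Mfn2, Opa1, Dnm1l and Pink1 are lower in Dox than in Control and higher in Rh2-30+Dox than in Rh2-30.

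Over the 5 lists together, 124 genes were tested, 115 of them outside the 9. None passed the adjusted threshold with Dox or Rh2. With Dox 13 were higher and 1 lower at an unadjusted p under 0.05, shares that stand beside 4.2% higher and 5.91% lower among all tested genes. With Rh2 2 were higher and 3 lower, beside 4.09% and 4.65%. The smallest adjusted p was 0.242 with Dox and 0.567 with Rh2.

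**Figure D4:**
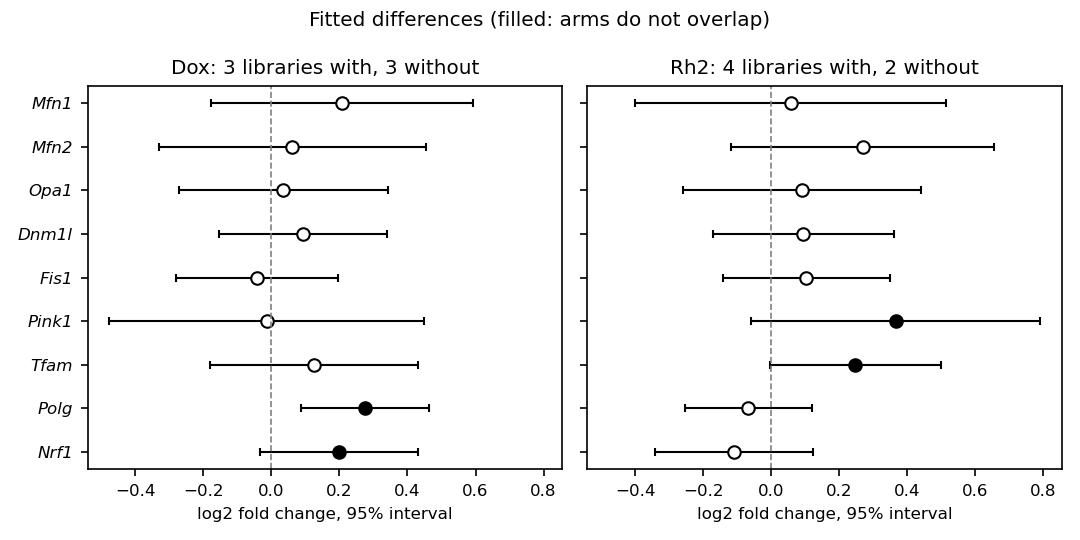
Fitted log2 fold changes of the 9 genes with 95% intervals from edgeR's quasi-likelihood fits, on the left for 3 libraries with Dox against 3 without and on the right for 4 with Rh2 against 2 without, filled where the arms do not overlap. The interval of Polg with Dox (0.09 to 0.46) lies above 0 and the other 17 intervals hold it.

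The library from Rh2-30+Dox had the highest level of the 6 for 7 of the 9 genes, all but Polg and Nrf1, which were highest in Dox. Of all tested genes, 20.2% were highest in the former and 18.8% in the latter. The lowest level was in Dox for 4 of the 9, in Rh2-30 for 4 and in Control for 1 (Tfam), against 19.9%, 21.1% and 17.2% of all tested genes. Relative to Control, all 9 genes were above 0 in Rh2-30+Dox, from 0.11 for Fis1 and Nrf1 to 0.51 for Pink1 on the log2 scale, where 48.7% of all tested genes were above 0. In Rh2-20+Dox the same ratio ranged from -0.10 (Opa1) to 0.25 (Tfam), and in Dox from -0.22 (Pink1) to 0.31 (Nrf1), where 3 of the 9 and 49.1% of all tested genes were above 0. The values in these comparisons share the Control library.

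The composition of the Rh2-30+Dox library was also at an extreme. Its fibroblast markers summed to 975 normalized CPM against 1416 to 2430 in the other libraries, its white fat markers to 0.345 against 4.43 to 199, its erythroid markers to 1657 against 2603 to 10498, and its macrophage markers to 202 against 228 to 424, each the lowest of the 6. Endothelial markers were lowest there as well, at 1545 against 1628 to 1875. Brown fat markers were the highest of the 6, at 304 against 210 to 291, with Ucp1 at 12 counts and Elovl3 at 0. Cardiomyocyte markers were the highest of the 6, at 119128, with Control (117752) and Dox (116107) close to it. The part of these differences in the levels of the 7 genes was not tested.

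Across all 81 ratios of 1 library to another, none of the 9 genes reached a 2-fold difference. Relative to Control, 6.14% of all tested genes did so in Rh2-20, 10.1% in Rh2-30, 8.75% in Rh2-20+Dox, 10.9% in Rh2-30+Dox and 9.01% in Dox. Relative to Dox the share was 6.51% in Rh2-20+Dox and 10.1% in Rh2-30+Dox, and with Dox over without it was 6.96% at Rh2-20 and 14.6% at Rh2-30. The log2 ratios lay between -0.36 and 0.73. Counting error alone gave a half-width of 0.018 to 0.124, and with the dispersion between libraries the half-width was 0.68 to 0.69. Ratios of Mfn1 (0.73, Rh2-30+Dox over Rh2-30) and Pink1 (0.73, Rh2-30+Dox over Dox) were the only 2 of the 81 whose wider interval excluded 0. In the same order of ratios that interval excluded 0 for 6.14%, 13.2%, 10.4%, 13.5%, 11%, 7.11%, 13.5%, 7.76% and 19.3% of all tested genes. That dispersion was estimated over the 6 libraries as 1 group and is common to all genes, so it includes the differences between treatments. At this width the interval of a difference below about 1.61-fold held 0. It is not a detection limit from replicates.

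**Figure D5:**
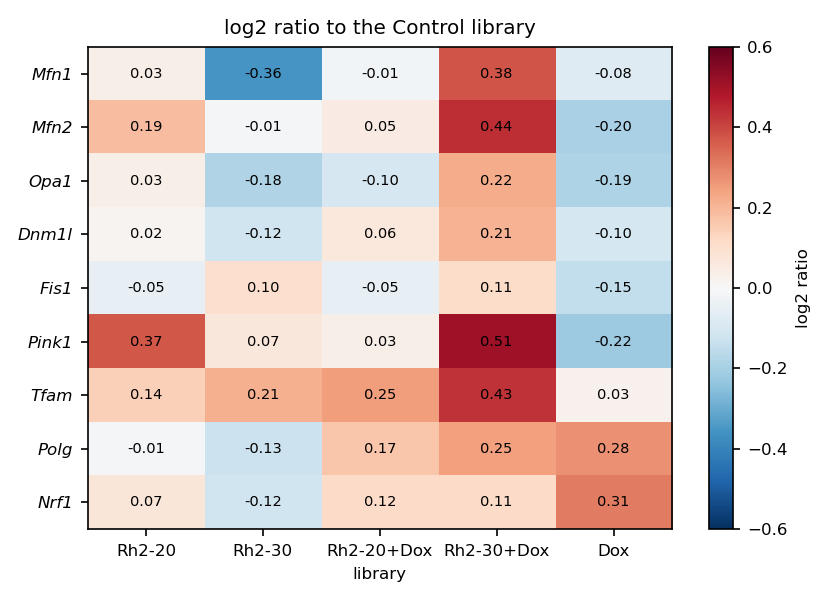
Log2 ratio of each gene in each treated library to the Control library, 1 library per column, with the value in each cell and colour from blue (below Control) to red (above). The column of Rh2-30+Dox is above 0 for all 9 genes, from 0.11 to 0.51, and that of Dox is below 0 for 6 of the 9.

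Likeness between genes was measured as the root mean square difference of log2 normalized CPM, each gene centred on its own mean, over the 6 libraries and the 13961 genes that averaged 100 counts or more. Among the 9, the closest pairs were Opa1 with Dnm1l (0.064), Polg with Nrf1 (0.068) and Mfn2 with Pink1 (0.072). A fusion gene and the fission GTPase were thus nearest to each other among the 9. Over all genes, Dnm1l was at rank 146 from Opa1, and Opa1 at rank 231 from Dnm1l. Nrf1 was at rank 165 from Polg, and Polg at 226 from Nrf1. Pink1 was at rank 179 from Mfn2, and Mfn2 at 71 from Pink1. The farthest pair was Pink1 with Nrf1 (0.30). Over all genes the nearest to Mfn2 were Uqcrfs1 and Ndufv2, subunits of respiratory complexes III and I, and the nearest to Pink1 were Acat1 and Pdha1, mitochondrial enzymes of ketone and pyruvate metabolism. Opa1 was nearest to Prkaa2 and Camk2a, and Dnm1l to Trap1, a mitochondrial chaperone, and Hacd1. Mfn1 was nearest to Adk and Gm4459, Tfam to Eif3h and Rtl8a, Fis1 to Maea and Ppp4c, Polg to Edc4 and Mfsd11, and Nrf1 to Tcea2 and Tubd1, all at 0.019 to 0.033. With 6 points a gene always has close neighbours among so many, and likeness here is a description.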

How the data were processed

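RNA from hearts of 6 groups was measured, with 1 library per group and 5 hearts pooled in each, matched to its group by its label. The authors trimmed the reads (Trimmomatic), aligned them to mm10 with HISAT2 2.1.0 and estimated abundance with StringTie 2.1.3b, per the labels and the submitters' processing notes. The authors' deposited counts were whole numbers per gene without normalization, and the deposited FPKM values were scaled by transcript length and library. The deposited TPM values were not used. How strand was handled in counting is not given in the sources used here, so reads of overlapping genes may be shared.

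The counts were fitted with edgeR 4.0.16 in R 4.3.3 (TMM, quasi-likelihood test, two-sided, adjusted p under 0.05 by Benjamini-Hochberg over the 18328 genes that averaged 10 counts or more). Rh2 was fitted with Dox as a term, and Rh2-30 against Rh2-20 with Dox and dose as 3 levels. Ratios of single libraries used a prior count of 0.5, with 95% intervals from counting (exact conditional binomial) and with a common dispersion of 0.0285 added, and have no replicate check. The p-values and the common dispersion both measure the spread between pooled libraries of different treatment. Totals were 86164411 to 90621002 counts. Promoter sequences and positions came from RefSeq (GRCm38.p6), with all 9 genes matched. Named list genes were those with the largest and smallest log2 fold change in each list (mean of at least 100 counts), those past the threshold in any fit, and the 2 nearest to each member. The members, lists and rules were chosen with earlier results of these data known. The alternatives were DESeq2 1.42.0 (Wald test and size factors), library totals, other filters on low counts, limma 3.58.1 on FPKM plus 1 or 0.1, Rh2 dose as a term, a prior count of 2, and each library left out. The steps were tested on simulated data. Protein, tissue and plasma measurements were not analysed here. The values of 1 list gene are not reported here.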

Additional observations from a re-analysis of the deposited data

Results flagged for a closer look

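For 5 of the 9 genes the ratio with over without Dox had opposite signs at different Rh2 doses, with counting error alone excluding 0 on both sides, as it did for 32.2% of all tested genes. The differences between doses were not tested, since each ratio rests on 1 library over another, and counting error leaves out the difference between libraries. At 0, 20 and 30 mg/kg of Rh2 the log2 ratios were -0.077, -0.0495 and 0.73 for Mfn1, -0.20, -0.14 and 0.45 for Mfn2, and -0.19, -0.14 and 0.40 for Opa1. They were -0.22, -0.34 and 0.44 for Pink1 and -0.10, 0.044 and 0.33 for Dnm1l. All 5 were thus below 0 without Rh2 and above 0 at 30 mg/kg, and 4 of the 5 were also below 0 at 20 mg/kg. The ratio at 30 mg/kg has as its denominator the library with the lowest cardiomyocyte markers and as its numerator that with the highest.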

How the results depend on the processing

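The count of genes past the adjusted threshold with Dox was 5, and 423 with DESeq2's Wald test, 2 with only genes that have a count in every library, 0 on FPKM plus 1, 0 with Rh2 dose as a term, the fit that sets libraries with and without Dox beside each other at each dose, and 0 to 14 when each library was left out (14 without Rh2-30+Dox). With Rh2 it was 0, and 247 by the Wald test. For dose it was 0, then 6 by the Wald test and 0 to 740 when each library was left out (397 without Rh2-30, 740 without Rh2-30+Dox). In the 5 lists the Wald test called 3 genes with Dox and 1 with Rh2, and leaving out a library called 0 to 4 for dose (Bnip3l, Nipsnap2, Slc25a4 and Sucla2 without Rh2-30, and Mfn1, -0.40, adjusted p = 0.0459, without Rh2-30+Dox). The cause was not tested. By the Wald test 423 of 18328 tested genes were called with Dox and 247 with Rh2, beside 3 and 1 of 124 list genes. The share in the lists was thus near that of all genes with Dox and lower with Rh2. Some log2 fold changes turned sign. On FPKM plus 1 and plus 0.1, the value with Dox was -0.0025 and -0.0029 for Mfn2 and -0.0066 and -0.0069 for Opa1 (-0.0081 on library totals), the value with Rh2 was 0.023 and 0.026 for Polg (0.0012 on library totals), and that for dose was -0.0047 and -0.0050 for Mfn1 and 0.012 and 0.013 for Polg. The ratio of Rh2-30 to Control turned above 0 on library totals, FPKM plus 1 and FPKM plus 0.1, at 0.052, 0.025 and 0.025 for Dnm1l, 0.044, 0.082 and 0.090 for Polg and 0.050, 0.048 and 0.053 for Nrf1. When each library was left out in turn, signs turned with Dox over -0.13 to 0.20 for Mfn2, -0.097 to 0.12 for Opa1, -0.11 to 0.016 for Fis1 and -0.24 to 0.14 for Pink1, with Rh2 over -0.15 to 0.27 for Mfn1, -0.069 to 0.26 for Opa1 and -0.049 to 0.24 for Dnm1l, and for dose over -0.40 to 0.42 for Mfn1, -0.21 to 0.43 for Mfn2, -0.23 to 0.36 for Opa1, -0.17 to 0.20 for Dnm1l, -0.27 to 0.47 for Pink1, -0.094 to 0.073 for Polg and -0.21 to 0.019 for Nrf1. Without Rh2-30+Dox the Dox values of Mfn2, Opa1 and Pink1 were at the lowest end of these ranges. Polg and Nrf1 with Dox and Pink1 and Tfam with Rh2 kept their direction under every alternative run. No member passed the adjusted threshold under any of them with Dox or Rh2.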
